A study of Mus musculus with 14 samples.

Results

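Bone marrow cells labelled megakaryocyte-erythroid progenitors (MEP) were compared with bone marrow cells labelled common myeloid progenitors (CMP) by RNA sequencing. Each population was represented by 2 samples, so 4 of the 14 samples of the study were used. The deposited values are FPKM (fragments per kilobase of gene length, scaled to library depth), given as the authors' mean of the samples of a group. The comparison covers every gene with at least 1 FPKM in either mean, which was 11912 of 49583 genes, and each difference is log2(MEP + 1) minus log2(CMP + 1), so that a positive value is higher in MEP. All 4 samples came from the marrow of C57BL/6 mice of wild type genotype, by cell sorting to a stated purity above 98%. The stated gate for MEP is c-Kit+, low for Fc gamma receptor, CD34+, and negative for lineage antigens, IL-7R and Sca-1. The stated gate for CMP is the same but CD34-. These CD34 signs are opposite to the usual definitions, in which MEP are CD34- and CMP are CD34+. Ages, sexes and animal numbers are not stated, nor whether separate mice were used for each sample. The other 10 samples belong to sorted spleen, embryonic liver and marrow populations, and are used here only as levels set beside these columns.

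In the usual scheme of blood formation, CMP can give rise to granulocytes and monocytes on one side and to MEP on the other, and MEP make red cells and platelets. GATA1 and KLF1 switch on the globin, heme and red cell membrane genes, while PU.1 (Spi1) and the C/EBP factors drive granulocyte and monocyte genes. Neutrophils fill their granules in sequence. Promyelocytes make the primary granule proteases, myelocytes and metamyelocytes make the secondary and tertiary granule proteins after C/EBP epsilon comes on, and late cells carry receptors for chemokines and bacterial peptides. Which of these programmes each column holds can therefore be read from named groups of genes.

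Values of single libraries were worked out from the digits of the deposited means, because each mean is the average of 2 values that are whole fragment counts times a step set by depth and gene length. The deeper library of a pair is called A and the other B, and neither can be tied to a sample of the study. The depths were 24620000 and 20080000 fragments for MEP, and 14640000 and 13410000 for CMP. Both libraries of both groups were recovered for 11544 of the 11912 genes; the other 368, among them the most abundant ones, have the authors' means only and no test. Differences were tested with limma on log2(FPKM + 1) of the 4 libraries for 11149 genes, with Benjamini-Hochberg adjustment over all of them. Calls required an adjusted p below 0.05 together with a log2 fold change of 1 or more in size. With 2 libraries a group, the p-values measure the spread between these libraries only. The libraries of a pair were alike: Pearson's r over the tested genes, taken as a description, was 0.986 for MEP and 0.978 for CMP. A gap above 2-fold was found for 0.978% of them between the MEP libraries and for 1.61% between the CMP libraries.

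The sort antigens set the labels against the data. Cd34 (ENSMUSG00000016494, mm10 chromosome 1, 194938819 to 194961279) encodes the sialomucin by which the gates separate the populations. It had 0.111 and 0.0273 FPKM in the MEP libraries, against 29.3 and 30.1 FPKM in the CMP libraries. The transcript was thus near 0 in the column whose gate is written CD34+, and abundant in the column whose gate is written CD34-, with a limma log2 fold change of -4.84 ± 0.11 (SE) and an adjusted p of 0.00011. For scale, the stem cell column held 44.4 FPKM and the lymphoid progenitor column 15.9 FPKM, as authors' means made in another number format. Kit, the stem cell factor receptor (chromosome 5, 75574916 to 75656722), had 8.88 and 6.93 FPKM in the MEP libraries and 22.9 and 23.0 FPKM in the CMP libraries. Both groups are gated as c-Kit+, and the limma log2 fold change was -1.44 ± 0.13 (SE; adjusted p = 0.00042), a call lost after median-of-ratios scaling. The other 4 gate antigens were not called with FPKM as deposited. Ly6a (Sca-1) averaged 0.30 FPKM in MEP and 1.41 FPKM in CMP, and Il7r averaged 2.56 FPKM in MEP and 1.10 FPKM in CMP. Il7r was called higher in MEP after median-of-ratios scaling, after quantile normalization and with a pseudocount of 0.1. Ly6a was called lower with a pseudocount of 0.1. The Fc gamma receptor genes Fcgr3 and Fcgr2b had 93.8 and 21.6 FPKM in MEP, and 101 and 18.9 FPKM in CMP.

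Lineage antigens, which both gates exclude, were present as transcripts in the MEP column. Ly6g, the neutrophil surface antigen (chromosome 15, 75155240 to 75159126), had 297 and 301 FPKM in the MEP libraries, against 13.1 and 1.19 FPKM in the CMP libraries. Itgam, which encodes CD11b, had 73.2 and 69.1 FPKM in the MEP libraries and 5.22 and 2.14 FPKM in the CMP libraries. Both were called higher in MEP, which was the case for 8.77% of all genes tested, and in both CMP library A lay above CMP library B. Cd3e, Cd4, Cd5 and Cd8a stayed under 1 FPKM in both means. Ptprc, which encodes CD45, was not analysed here.

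Antigens used for finer gates of marrow progenitors set the columns further apart. Flt3, the receptor that marks multipotent and lymphoid-primed progenitors, had 0.592 and 0.379 FPKM in the MEP libraries and 15.7 and 16.3 FPKM in the CMP libraries. Cd48 averaged 8.64 FPKM in MEP and 97.9 FPKM in CMP, Eng 0.97 and 12.1 FPKM, and the integrin gene Itga2b (CD41) 2.01 and 18.8 FPKM, in the same order. Tfrc, the transferrin receptor that rises as erythroid cells take up iron, averaged 11.1 FPKM in MEP and 28.1 FPKM in CMP. Those 5 were called lower in MEP, Tfrc not under either other scaling, while Cd9, Cd36 and Cd63 were called higher, with Cd9 at 99.5 FPKM in MEP and 12.3 FPKM in CMP. Cd63 lost its call without CMP library B, Cd36 with a pseudocount of 5, and both when the spread was shared with other groups' libraries. Eng, Itga2b and Cd9 are among the antigens that mark erythroid and megakaryocyte progenitors inside the classical gates.

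**Figure D1:**
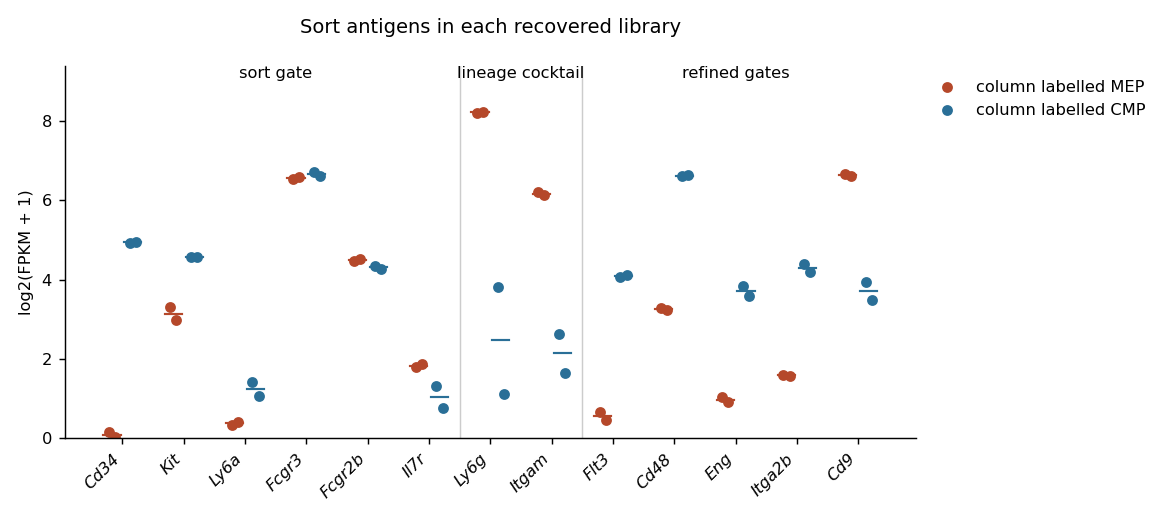
Each point is 1 recovered library, as log2(FPKM + 1), with a line at the group mean, for the column labelled MEP (red, left of each pair) and the column labelled CMP (blue, right). The sort gate, lineage cocktail and finer progenitor gate antigens stand in separate panels; Cd34 lies near 0 in both MEP libraries, Ly6g above 8, and the CMP libraries stand apart from each other in the lineage antigens.

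Because the transcripts go against the stated gates, the groups are called here by the label of their column, as the column labelled MEP and the column labelled CMP, and "MEP" and "CMP" stand for those columns only. Whether a label, a gate or the sort accounts for the mismatch was not tested. In bulk samples, fewer cells of a type and less RNA per cell cannot be told apart.

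Of the 11912 genes, 1102 (9.25%) were at least 2-fold higher in MEP and 3458 (29.0%) at least 2-fold lower, on the log2(FPKM + 1) scale of the means. By limma, 978 of 11149 genes (8.77%) were called higher in MEP and 3286 (29.5%) lower. The median log2 difference over all genes was -0.52, so lists are read against that value. The split depends on scaling. Of the called genes, 22.9% were higher in MEP with FPKM as deposited, 45.9% after median-of-ratios scaling and 49.1% after quantile normalization, and the median of all genes moved to -0.12 and -0.08 under those scalings. The 4 most abundant MEP transcripts, S100a9, Ngp, S100a8 and Camp, made up 42.7% of all FPKM in MEP and 1.02% in CMP. Counted as fragments, which do not give short genes extra weight, they were 12.01% of the MEP total and 0.187% of the CMP total. Their part in the split was not tested. Over the tested genes, both MEP libraries lay above both CMP libraries in 23.4% and below them in 64.7%, so groups that do not overlap are common.

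The MEP column was rich in neutrophil transcripts of the secondary and tertiary granule stage. S100a9 (chromosome 3, 90692632 to 90695721), a subunit of the alarmin calprotectin that fills the neutrophil cytosol, averaged 84794 FPKM in MEP and 1561 FPKM in CMP, which made it the most abundant gene of the MEP column. Ngp, a cathelicidin-related protein of the secondary granule (chromosome 9, 110419747 to 110423012), averaged 34069 FPKM in MEP and 399.6 FPKM in CMP. Camp, the mouse cathelicidin, averaged 14922 FPKM in MEP and 182 FPKM in CMP. The iron-binding proteins Ltf and Lcn2 averaged 6403 and 3909 FPKM in MEP, and 84.9 and 66.8 FPKM in CMP. Chil3 averaged 7203 FPKM in MEP and 173 FPKM in CMP. The tertiary granule metalloproteases Mmp8 and Mmp9 averaged 352 and 422 FPKM in MEP, and 22.8 and 18.8 FPKM in CMP. All 12 genes of the secondary and tertiary granule list were at least 2-fold higher in MEP, with a median log2 difference of 4.89, against -0.52 over all genes. The list's smallest differences were those of Lyz1, at 1.72, and of haptoglobin (Hp), at 2.24. Only Lyz1 could be tested, at 3.70 and 4.85 FPKM in the MEP libraries and 1.03 and 0.177 FPKM in the CMP libraries (limma log2 fold change 1.76 ± 0.29, SE; adjusted p = 0.0029). That call was lost with a pseudocount of 5, and the other 11 members have no test.

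Secondary granule genes are known targets of C/EBP epsilon, and all members of this list were higher in MEP. The promoters shown are 3 of the 5 in the list that hold the C/EBP letters, so the letters in them are no result. The sequences are from RefSeq (GRCm38.p6, plus strand), from 250 bases before the RefSeq start up to the base before the GENCODE M21 gene start. Capitals mark matches to the C/EBP letters TTGCNNAA on either strand. Another Ngp match, 11 bases before the RefSeq start, lies past the end of the stretch shown. The bases after the RefSeq start were found in GENCODE M21 transcripts for Ngp and Ltf but not for Mmp8.
Ngp, chr9:110419558-110419746: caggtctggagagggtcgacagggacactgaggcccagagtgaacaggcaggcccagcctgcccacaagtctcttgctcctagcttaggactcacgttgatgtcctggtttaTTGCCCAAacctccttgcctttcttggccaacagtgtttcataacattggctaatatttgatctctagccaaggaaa
Ltf, chr9:111019042-111019270: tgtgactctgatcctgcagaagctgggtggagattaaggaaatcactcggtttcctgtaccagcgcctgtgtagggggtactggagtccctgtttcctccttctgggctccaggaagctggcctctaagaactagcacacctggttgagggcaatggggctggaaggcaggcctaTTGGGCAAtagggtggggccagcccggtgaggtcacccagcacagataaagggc
Mmp8, chr9:7558179-7558428: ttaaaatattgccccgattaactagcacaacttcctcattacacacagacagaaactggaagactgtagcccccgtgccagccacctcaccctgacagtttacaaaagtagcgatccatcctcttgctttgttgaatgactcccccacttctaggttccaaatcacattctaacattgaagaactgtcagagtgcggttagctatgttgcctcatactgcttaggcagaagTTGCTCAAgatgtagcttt
In the 250 bases before the start, TTGCNNAA was found in 5 of 9 secondary and tertiary granule promoters with a sequence (55.6%), in 1 of 11 primary granule promoters (9.09%) and in 9.55% of 27025 promoters. The PU.1 letters AGGAAG, on either strand, were in 6 of 9 secondary (66.7%), 10 of 11 primary (90.9%) and 29.2% of all promoters. Ngp, Ltf, Mmp8, Lcn2 and Lyz1 held a match to TTGCNNAA, and Camp, Cd177, Chil3 and Cybb held none. Whether the letters bear on the levels of these genes was not tested. A match of letters describes the sequence and is not a measured binding site.

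Primary granule genes, made at the earlier promyelocyte stage, went mostly the other way. Elane (neutrophil elastase, chromosome 10, 79886247 to 79888215) averaged 762 FPKM in MEP and 2673 FPKM in CMP, Mpo (myeloperoxidase) 219 FPKM in MEP and 1753 FPKM in CMP, and Prtn3 (proteinase 3) 272 FPKM in MEP and 1131 FPKM in CMP. Ctsg, cathepsin G, had 101 and 64.8 FPKM in the MEP libraries, against 905 and 1096 FPKM in the CMP libraries, (limma log2 fold change -3.60 ± 0.23, SE; adjusted p = 0.00016). Ctsc, which activates these proteases, had 2.86 and 2.65 FPKM in the MEP libraries and 38.4 and 28.9 FPKM in the CMP libraries. Of the 11 members above 1 FPKM, 8 were at least 2-fold lower in MEP and 2 higher, with a median log2 difference of -1.81, and limma called 5 of 6 tested members lower, against 29.5% of all genes, and 3 after median-of-ratios scaling. The 2 higher ones were Lyz2, lysozyme, which later neutrophils and macrophages also make, with 9837 FPKM in MEP and 793 FPKM in CMP, and Fcnb, ficolin B, with 693 FPKM in MEP and 55.1 FPKM in CMP. Elane, Mpo and Prtn3, though lower in MEP, were far from 0 in that column.

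Genes of late neutrophils were also higher in MEP. Fpr2, a receptor for formylated bacterial peptides, had 134 and 115 FPKM in the MEP libraries and 5.59 and 0.690 FPKM in the CMP libraries. Cxcr2, the receptor by which neutrophils leave the marrow, had 51.3 and 48.9 FPKM in the MEP libraries and 9.62 and 1.47 FPKM in the CMP libraries. Mxd1, a MYC antagonist of late myeloid cells, had 67.5 and 64.9 FPKM in the MEP libraries and 8.38 and 3.80 FPKM in the CMP libraries. The MEP libraries lay above the CMP libraries in these 3 genes, as in 23.4% of all tested genes. Of the 15 late neutrophil genes 11 were at least 2-fold higher in MEP and 1 lower, with a median log2 difference of 2.97. By limma 6 of 11 tested members were called higher, against 8.77% of all genes. Not every member was called: Il1b had 23.6 and 7.60 FPKM in the MEP libraries and 12.2 and 1.09 FPKM in the CMP libraries, which overlap, and its call appeared only when CMP library A was left out. Slpi, a protease inhibitor, had 76.0 and 62.4 FPKM in the MEP libraries and 62.4 and 59.6 FPKM in the CMP libraries and was not called in any alternative.

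**Figure D2:**
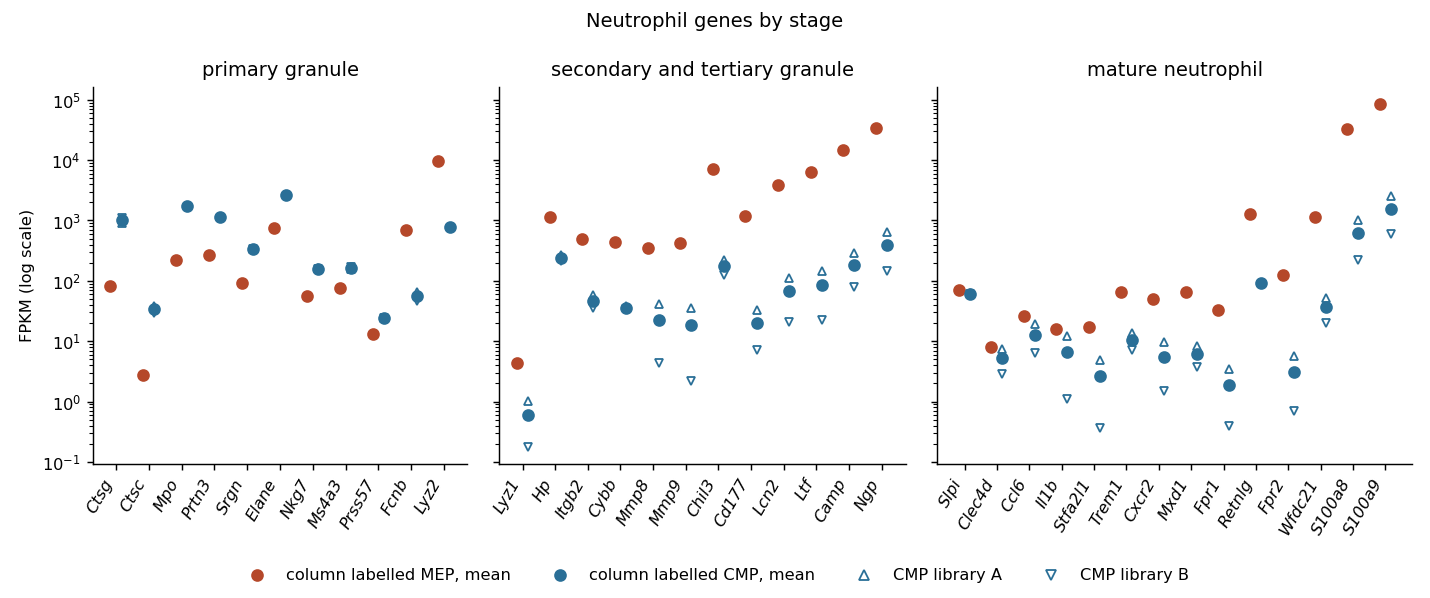
FPKM on a log scale of the primary granule, secondary and tertiary granule and late neutrophil genes reported here, ordered by difference within each panel, as the mean of the column labelled MEP (red) and of the column labelled CMP (blue), with CMP library A (triangle up) and B (triangle down) where recovered. All secondary and tertiary granule genes are higher in MEP, most primary granule genes are higher in CMP, and CMP library A lies above B for the secondary granule and late neutrophil genes.

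The neutrophil transcripts of the CMP column came largely from library A. Ngp had 654 FPKM in CMP library A and 146 FPKM in CMP library B, S100a9 2532 and 590 FPKM, and Mmp9 35.5 and 2.19 FPKM, in the same order. Of 11 secondary and tertiary granule genes recovered in CMP, 7 were at least 2-fold higher in A, against 139 of all 10964 recovered genes. The list's median log2 difference of A minus B was 2.07. Late neutrophil genes were alike, with 10 of 14 at least 2-fold higher in A and a median of 1.54. Primary granule genes did not follow, with a median of 0.02, against 0.04 over all genes. B cell and dendritic cell genes did so in part, with medians of 0.92 and 0.91. Between the MEP libraries the largest such gap among the lists of this paragraph was the dendritic cell median of -0.33. Only 1 secondary and tertiary granule gene was recovered in MEP, at -0.32. That list therefore cannot show whether the MEP libraries were alike in it. Globin genes, outside these lists, stood further apart, at -0.97 in MEP and 1.89 in CMP over 2 genes each. Leaving out CMP library A moved the count of late neutrophil genes called higher to 9 of 11 tested, and leaving out CMP library B moved it to 5. Over all genes 1056 were called higher in MEP without CMP library A and 953 without CMP library B. For scale, S100a9 averaged 5728 FPKM in the stem cell column and 7171 FPKM in the lymphoid progenitor column, above its level in the CMP column.

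**Figure D3:**
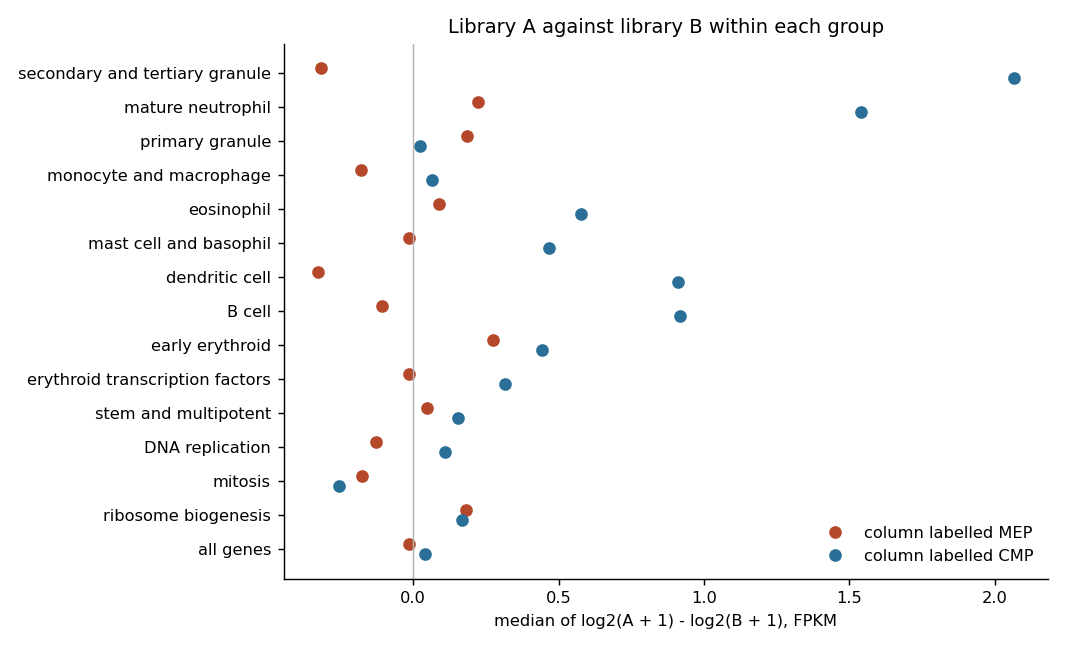
Median of log2(A + 1) minus log2(B + 1), in FPKM, over the recovered members of each list with at least 1 FPKM in the group's mean, for the libraries of the column labelled MEP (red, upper) and of the column labelled CMP (blue, lower). The CMP libraries stand apart in secondary granule (2.07) and late neutrophil (1.54) genes and by 0.04 over all genes. The MEP point of the secondary granule list is 1 gene.

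Fate factors of the granulocyte and monocyte branches included large differences in both directions. Cebpe, the factor that switches promyelocytes to secondary granule synthesis (chromosome 14, 54710360 to 54712174), had 275 and 299 FPKM in the MEP libraries and 32.5 and 21.3 FPKM in the CMP libraries (limma log2 fold change 3.40 ± 0.20, SE; adjusted p = 0.00014). Cebpd, used in late granulocytes, averaged 48.8 FPKM in MEP and 17.3 FPKM in CMP, and Id2 averaged 58.0 FPKM in MEP and 12.2 FPKM in CMP. Irf8, which directs monocyte and dendritic cell fate (chromosome 8, 120736358 to 120756694), had 2.79 and 1.93 FPKM in the MEP libraries and 93.7 and 102 FPKM in the CMP libraries (limma log2 fold change -4.89 ± 0.15, SE; adjusted p = 0.00011). Klf4, a monocyte factor, averaged 7.33 FPKM in MEP and 57.4 FPKM in CMP, Zeb2 1.39 FPKM in MEP and 15.3 FPKM in CMP, and Cebpa, needed to form granulocyte-monocyte progenitors, 9.999 FPKM in MEP and 60.5 FPKM in CMP. Spi1 averaged 132 FPKM in MEP and 78.2 FPKM in CMP and Gfi1, a granulocyte repressor of monocyte genes, 26.3 FPKM in MEP and 18.1 FPKM in CMP; neither was called, but Spi1 was called higher under both other scalings and Gfi1 after median-of-ratios scaling. Of 13 tested fate factors, 3 were called higher in MEP, against 8.77% of all genes, and 5 lower, against 29.5%. After median-of-ratios scaling 5 were higher and 4 lower.

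Growth factor receptors differed in both directions. Csf3r, the G-CSF receptor of neutrophils, averaged 154 FPKM in MEP and 58.3 FPKM in CMP, without a test, and Csf2ra, the GM-CSF receptor subunit, had 259 and 218 FPKM in the MEP libraries and 106 and 123 FPKM in the CMP libraries. Csf1r, the M-CSF receptor of monocytes, had 10.5 and 12.3 FPKM in the MEP libraries and 65.8 and 65.2 FPKM in the CMP libraries. Il3ra, Il6ra and Il1rl1 were called lower in MEP along with Csf1r, and Csf2ra was called higher, though not when CMP library A or MEP library A was left out. Under either other scaling, and with a pseudocount of 5, 2 of 8 tested receptors were called lower in place of 4, as Il6ra and Il1rl1 lost their call. Il1rl1 also lost it without CMP library A. Epor, the erythropoietin receptor, averaged 0.685 FPKM in MEP and 2.09 FPKM in CMP and was not called. Of all tested genes, 29.5% were called lower in MEP and 8.77% higher.

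Monocyte genes were higher in the column labelled CMP. F13a1, coagulation factor XIII A of monocytes and megakaryocytes (chromosome 13, 36867178 to 37050244), had 3.32 and 2.97 FPKM in the MEP libraries and 260 and 261 FPKM in the CMP libraries (limma log2 fold change -5.98 ± 0.09, SE; adjusted p = 7.1e-05). Ms4a6c averaged 3.26 FPKM in MEP and 73.3 FPKM in CMP, and Ccr2, the receptor by which monocytes leave the marrow, 3.73 FPKM in MEP and 29.2 FPKM in CMP. Of 10 tested monocyte and macrophage genes 6 were called lower in MEP, against 29.5% of all genes, with a median log2 difference of -1.08 over 13 members above 1 FPKM. The exception was Vcam1, called higher at 7.83 FPKM in MEP and 3.34 FPKM in CMP, a call lost when MEP library A or CMP library B was left out. The Vcam1 call was also lost with a pseudocount of 5 and when the spread was shared with other groups' libraries. Tissue macrophage genes were near 1 FPKM: C1qa averaged 1.19 FPKM in MEP and 0.962 FPKM in CMP. Of 9 tested dendritic cell genes 5 were called lower in MEP, against 29.5% of all genes, among them Bst2 with 10.1 FPKM in MEP and 90.3 FPKM in CMP, and Siglech, a plasmacytoid cell receptor, with 0.242 FPKM in MEP and 2.83 FPKM in CMP. The count was 2 of 9 after median-of-ratios scaling, and 3 of 9 after quantile normalization, with a pseudocount of 5, without MEP library A or without CMP library A; the class II genes H2-Aa and H2-Ab1 lost their call without either library.

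Eosinophil, basophil and mast cell genes were also higher in the CMP column. Prg2, eosinophil major basic protein (chromosome 2, 84980461 to 84983632), had 2.62 and 1.0103 FPKM in the MEP libraries and 314 and 212 FPKM in the CMP libraries (limma log2 fold change -6.59 ± 0.32, SE; adjusted p = 0.00011). Its log2 difference of the means, -6.55, was the lowest of all 11912 genes. Epx, eosinophil peroxidase, had 0.237 and 0.0182 FPKM in the MEP libraries and 24.0 and 15.8 FPKM in the CMP libraries. Of 7 tested eosinophil genes 5 were called lower in MEP, against 29.5% of all genes, and 3 with a pseudocount of 5, while Ear2, a ribonuclease of eosinophils and other myeloid cells, was called higher at 64.4 FPKM in MEP and 6.23 FPKM in CMP. At least 1 FPKM was reached by 7 recovered eosinophil genes in CMP and by 3 in MEP. Members that passed the filter only through CMP could only be lower in MEP. Ear genes are near-identical copies, so reads could be split among them.

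Among basophil and mast cell genes, Mcpt8, a basophil protease (chromosome 14, 56082166 to 56085273), had 47.8 and 41.3 FPKM in the MEP libraries and 579 and 411 FPKM in the CMP libraries. Prss34, another basophil protease, had 85.7 and 74.4 FPKM in the MEP libraries and 922 and 680 FPKM in the CMP libraries. Cpa3, carboxypeptidase A3 of mast cells and basophils and their progenitors, had 5.38 and 5.19 FPKM in the MEP libraries and 120 and 85.7 FPKM in the CMP libraries. The MEP libraries lay below the CMP libraries in these 3 genes, as in 64.7% of all tested genes, and neither protease was near 0 in the MEP libraries. Of 8 tested members 6 were called lower in MEP, against 29.5% of all genes. Hdc, histidine decarboxylase, which neutrophils also make, was called higher, at 60.9 FPKM in MEP and 21.5 FPKM in CMP. The connective tissue mast cell tryptase and chymase genes Tpsb2, Tpsab1 and Cma1 were under 1 FPKM in both means.

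Stem and multipotent genes were mostly lower in MEP. Adgrg1, an adhesion receptor of stem cells and early progenitors, had 5.005 and 4.48 FPKM in the MEP libraries and 57.1 and 51.6 FPKM in the CMP libraries. Angpt1 averaged 0.195 FPKM in MEP and 8.98 FPKM in CMP, and the homeobox genes Hoxa9 and Meis1 averaged 0.0757 and 0.0689 FPKM in MEP, and 2.63 and 1.81 FPKM in CMP. Of 11 tested members 7 were called lower in MEP, against 29.5% of all genes, and 3 higher, against 8.77%, with a median log2 difference of -1.25. At least 1 FPKM was reached by 11 recovered members in CMP and by 5 in MEP. Angpt1, Hoxa9, Hoxa5, Meis1, Msi2 and Mycn passed the filter only through CMP, which fixed their direction in advance. With a filter of 5 FPKM, 2 of 5 tested members were called lower and 3 higher, and the list's median was 1.15. After quantile normalization 4 were called lower, and with a pseudocount of 5 there were 2 lower and 1 higher. Among the higher ones were Ifitm3 (430 FPKM in MEP and 180 FPKM in CMP) and Erg (28.0 FPKM in MEP and 12.1 FPKM in CMP). The genes closest to the long-term stem cell, Procr, Mecom, Fgd5 and Prdm16, were under 1 FPKM in both columns.

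Neither column held an erythroid programme of the size seen in erythroblasts. The adult beta-globin gene Hbb-bs averaged 4.203 FPKM in MEP and 3.71 FPKM in CMP, beside 79975 FPKM in the Ter-119+ cells of embryonic liver, a column in the same number format. All globin genes together were 0.00227% of FPKM in MEP and 0.00232% in CMP, and 47.6% in the embryonic liver column. Alas2, which starts heme synthesis in red cell precursors, averaged 0.192 FPKM in MEP and 0.176 FPKM in CMP, beside 1636 FPKM in embryonic liver. Slc4a1, the band 3 anion exchanger, averaged 0.216 FPKM in MEP and 0.0425 FPKM in CMP, beside 2558 FPKM in embryonic liver. Of 15 red cell membrane genes 14 were lower than in embryonic liver in both marrow columns, as were 4069 of all 49583 genes. Limma called none of the 3 tested globin genes, and none had an unadjusted p under 0.05; Hbb-bs and Hba-a1 were called higher in MEP without CMP library A, where library A held 6.94 FPKM of Hbb-bs and library B 0.485 FPKM, and the difference of Hbb-bs turned negative without CMP library B.

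The regulators of the erythroid line were mostly lower in the column labelled MEP. Klf1, which activates adult beta-globin (chromosome 8, 84901928 to 84905291), had 1.57 and 0.944 FPKM in the MEP libraries and 5.76 and 2.68 FPKM in the CMP libraries, beside a mean of 317 FPKM in embryonic liver. Its limma log2 fold change was -1.16 ± 0.32 (SE; adjusted p = 0.02), a call lost without CMP library A, without MEP library B and under both other scalings. The Klf1 call was also lost with a pseudocount of 5 and when the spread was shared with other groups' libraries. Gata1 (chromosome X, 7959260 to 7978071) had 1.18 and 0.674 FPKM in the MEP libraries and 7.71 and 4.34 FPKM in the CMP libraries, beside 105 FPKM in embryonic liver, with a limma log2 fold change of -1.83 ± 0.27 (SE; adjusted p = 0.0021). That call was lost with a pseudocount of 5. Gata2, the factor of stem cells and of mast cells and basophils that Gata1 replaces, averaged 3.71 FPKM in MEP and 27.6 FPKM in CMP, beside 0.224 FPKM in embryonic liver. Myb averaged 10.2 FPKM in MEP and 45.9 FPKM in CMP, and Lmo2 26.7 FPKM in MEP and 80.9 FPKM in CMP. Of 16 tested erythroid factors 11 were called lower in MEP, against 29.5% of all genes, with 8 after median-of-ratios scaling, 7 after quantile normalization and 6 with a pseudocount of 5. Nfe2, which myeloid cells also express, averaged 59.9 FPKM in MEP and 37.7 FPKM in CMP and was called higher only after median-of-ratios scaling.

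**Figure D4:**
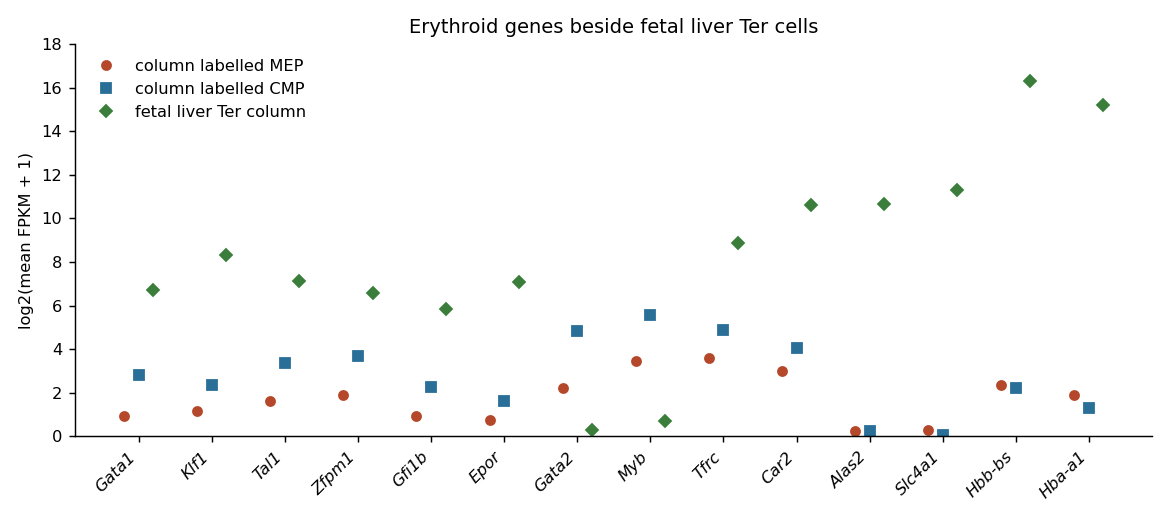
Means of erythroid genes as log2(FPKM + 1) in the column labelled MEP (red circles), the column labelled CMP (blue squares) and the Ter-119+ cells of embryonic liver (green diamonds). Both marrow columns lie far below embryonic liver for every gene shown except Gata2 and Myb, and globins stay under 3 in both.

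Genes of the later steps of the erythroid line were in part lower in MEP. In early erythroid genes 6 of 10 tested were called lower, against 29.5% of all genes, with Prdx2, peroxiredoxin 2, at 4.78 FPKM in MEP and 32.1 FPKM in CMP, and Car2, carbonic anhydrase 2, at 7.01 FPKM in MEP and 15.9 FPKM in CMP, beside 1551 FPKM in embryonic liver. The count was 3 after median-of-ratios scaling, without CMP library A or without MEP library B, and 2 after quantile normalization or with a pseudocount of 5. Cd24a, the most abundant member and a surface antigen of many blood cells, went the other way without a test, at 267 FPKM in MEP and 70.8 FPKM in CMP. Car1, the carbonic anhydrase that marks erythroid-committed progenitors, had 19.1 and 11.2 FPKM in the MEP libraries and 40.9 and 24.6 FPKM in the CMP libraries. It lost its call without CMP library A, without MEP library B and under both other scalings. Its call was also lost with a pseudocount of 5 and when the spread was shared with other groups' libraries. In heme synthesis 3 of 10 tested genes, Alad and Cpox among them, were called lower in MEP, a share near the 29.5% of all genes. In the red cell membrane list 2 of 5 (Gypc and Kel) were, and 1 after either other scaling, and the list's median, -0.23, turned to 0.21 after median-of-ratios scaling and 0.25 after quantile normalization. Genes of iron uptake gave 5 of 9 lower, against 29.5% of all genes, with 3 after quantile normalization and 2 with a pseudocount of 5. Tfr2, transferrin receptor 2, was among the 5, with 0.806 FPKM in MEP and 6.80 FPKM in CMP. Slc40a1, the iron exporter ferroportin, was called higher, at 17.3 FPKM in MEP and 1.86 FPKM in CMP.

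Megakaryocyte genes held members called in each direction. Pf4, platelet factor 4 (chromosome 5, 90772435 to 90773383), had 0.225 and 0.0691 FPKM in the MEP libraries and 9.19 and 12.5 FPKM in the CMP libraries (limma log2 fold change -3.36 ± 0.18, SE; adjusted p = 0.00012). Gp5 and Treml1, platelet surface proteins, were called lower in MEP as well. The 4 called higher were Thbs1 (72.1 FPKM in MEP and 5.003 FPKM in CMP), Nbeal2 (48.3 FPKM in MEP and 14.1 FPKM in CMP), Itgb3 and Gp1bb. Nbeal2 and Thbs1 are also made by neutrophils and other myeloid cells. Of 14 tested members 4 were thus higher, against 8.77% of all genes, and 4 lower, a share near the 29.5% of all genes; with a pseudocount of 5 there were 2 higher and 1 lower. The list's median of -0.16 turned to 0.18 after median-of-ratios scaling. Ppbp, Gp6 and Mpig6b, which mark platelet-forming cells, were at or under 0.0563 FPKM in both means. Other platelet genes were higher than that. Gp9 averaged 1.45 FPKM in MEP and 1.89 FPKM in CMP, and Gp1ba 0.81 FPKM in MEP and 1.14 FPKM in CMP, and neither was called.

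Lymphoid transcripts were low in both columns and mostly higher in MEP. Vpreb1, part of the surrogate light chain of pro-B and pre-B cells, had 12.01 and 12.3 FPKM in the MEP libraries and 0.737 and 0.134 FPKM in the CMP libraries. Igll1, its partner chain, had 9.29 and 10.9 FPKM in the MEP libraries and 0.695 and 0.241 FPKM in the CMP libraries. Cd79a, a signalling chain of the B cell receptor, had 15.9 and 17.2 FPKM in the MEP libraries and 4.55 and 0.461 FPKM in the CMP libraries. Of 12 tested B cell genes 9 were called higher in MEP, against 8.77% of all genes, 5 without CMP library B and 4 with a pseudocount of 5. Of 9 tested T and NK cell genes 5 were called higher, against 8.77% of all genes, and 1 with a pseudocount of 5. Among the 5 were Ccl5, with 7.95 FPKM in MEP and 0.867 FPKM in CMP, and Cd3d, with 1.53 FPKM in MEP and 0.115 FPKM in CMP. Cd3e, another CD3 chain, averaged 0.0111 FPKM in MEP and 0.00837 FPKM in CMP. Cd4, Cd5 and Cd8a, all under 1 FPKM, were lower in MEP than in CMP, without a test. In the B cell list and in the T and NK cell list no member was called lower, and 1 in each was lower at an unadjusted limma p under 0.05. The filter bears on these counts. At least 1 FPKM was reached by 12 recovered B cell genes in MEP and 6 in CMP. For T and NK cell genes it was 10 in MEP and 2 in CMP. Members that passed only through MEP could only be higher there, so these shares are no test of direction. With no filter 9 of 15 B cell genes and 5 of 16 T and NK cell genes were called higher, against 993 of 13273 genes. Summed over its list, B cell genes held 89.1 FPKM in MEP and 33.1 FPKM in CMP, and T and NK cell genes 28.6 FPKM in MEP and 8.24 FPKM in CMP. The part of these cells in the other results was not tested. Of 12 genes of marrow stroma and endothelium 2 reached 1 FPKM: Pecam1, also a leukocyte gene, with 2.05 FPKM in MEP and 22.0 FPKM in CMP, and Col1a1 with 2.42 FPKM in MEP and 0.0421 FPKM in CMP.

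**Figure D5:**
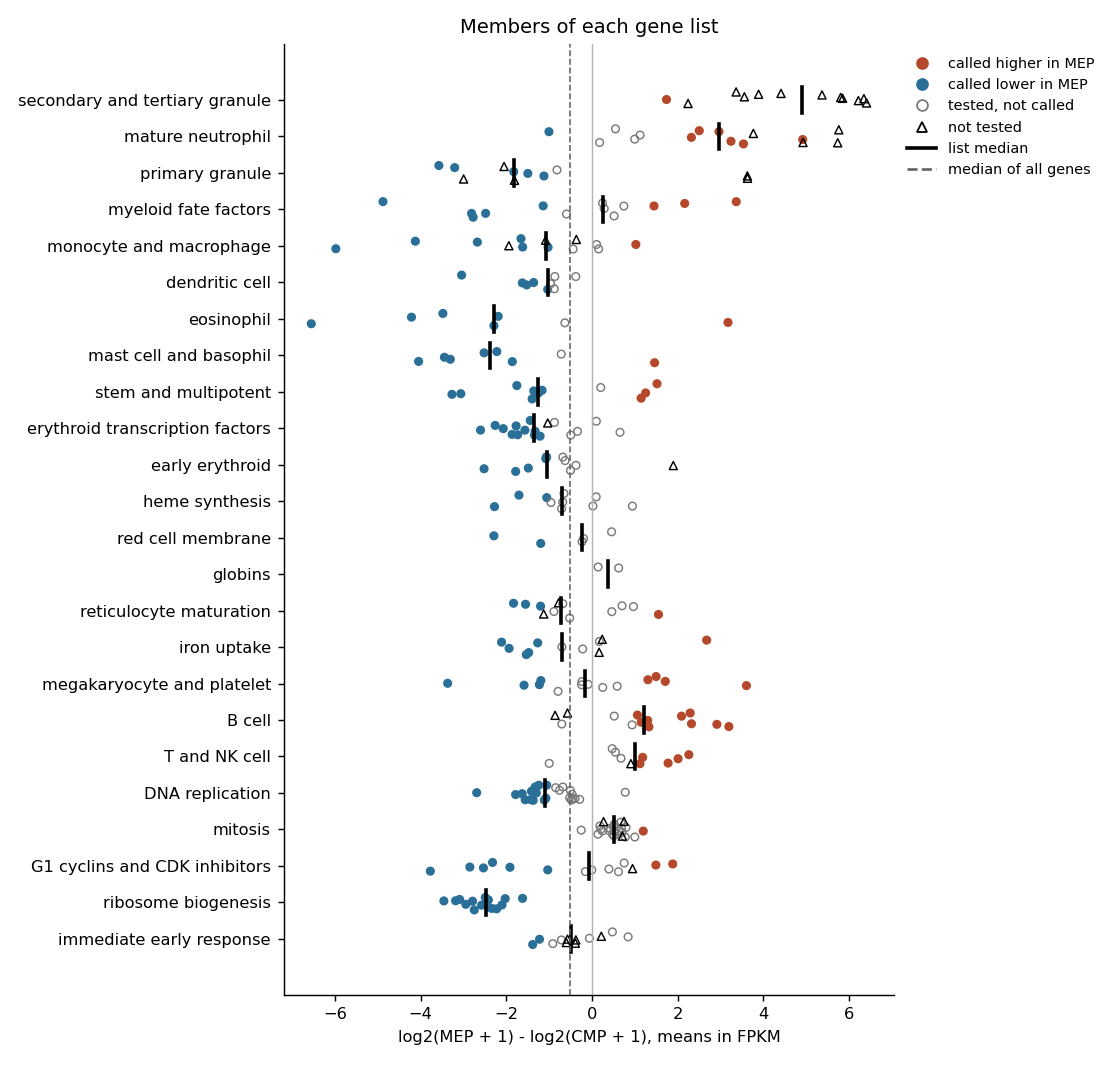
Each point is 1 gene of a list with at least 1 FPKM in either mean, placed by log2(MEP + 1) minus log2(CMP + 1) of the means in FPKM; red points were called higher in MEP by limma, blue points lower, open circles were not called and triangles were not tested. Bars are list medians and the dashed line is the median of all genes (-0.52); secondary granule (4.89) and late neutrophil (2.97) genes lie to the right, and ribosome biogenesis (-2.47), mast cell and basophil (-2.37) and eosinophil (-2.29) genes to the left.

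Genes of growth and division differed by kind. Of 16 ribosome biogenesis genes all 16 were called lower in MEP, against 29.5% of all genes, with a median log2 difference of -2.47. All 16 were also called lower in every alternative scaling. Npm1, nucleophosmin (chromosome 11, 33152287 to 33163206), had 53.4 and 41.6 FPKM in the MEP libraries and 398 and 427 FPKM in the CMP libraries. Myc, which drives those genes (chromosome 15, 61985391 to 61990374), had 3.98 and 4.80 FPKM in the MEP libraries and 90.1 and 55.3 FPKM in the CMP libraries (limma log2 fold change -3.74 ± 0.24, SE; adjusted p = 0.00016). The G1 kinases Cdk4 and Cdk6 averaged 14.9 and 5.01 FPKM in MEP, and 114 and 33.8 FPKM in CMP. Ccnd1 and Ccnd2 were called lower too, while Ccnd3 (53.4 FPKM in MEP and 18.3 FPKM in CMP) and the CDK inhibitor Cdkn2d (89.1 FPKM in MEP and 23.4 FPKM in CMP) were called higher.

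With FPKM as deposited, DNA replication genes were mostly lower in MEP while mitosis genes were not. Mcm6, a subunit of the replicative helicase, had 32.9 and 39.4 FPKM in the MEP libraries and 136 and 118 FPKM in the CMP libraries. Of 26 tested replication genes 15 were called lower in MEP, against 29.5% of all genes, with a median log2 difference of -1.09. After median-of-ratios scaling 4 of 26 were, a share near that of all genes (1878 of 11149). The median was then -0.62, against -0.12 over all genes. After quantile normalization 6 of 26 were, against 1696 of 11149 genes. Mki67, a marker of cycling cells, averaged 137 FPKM in MEP and 80.9 FPKM in CMP, without a test. Ccnb1, the mitotic cyclin, had 15.8 and 17.7 FPKM in the MEP libraries and 12.3 and 16.5 FPKM in the CMP libraries, and was not called. Of all 11149 tested genes, 8.77% were called higher in MEP, with 1595 after median-of-ratios scaling and 1637 after quantile normalization. The mitosis median was 0.52, and 1 of 21 tested members was called, Ube2c at 51.2 FPKM in MEP and 21.8 FPKM in CMP. That call was lost without CMP library A and when the spread was shared with other groups' libraries. After median-of-ratios scaling 12 of 21 were called higher, and 7 after quantile normalization. Immediate early genes, which cell handling can induce, averaged for example 208 FPKM of Fos in MEP and 310 FPKM in CMP, and 2 of 7 tested (Fosb and Jund) were called lower in MEP, a share near the 29.5% of all genes. Neither was called lower after median-of-ratios scaling, where Nr4a1 and Ier2 were called higher, and those 2 were higher and 1 member lower after quantile normalization.

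The largest differences outside the lists were chosen by their size and are given as a description. Orm1, an acute phase glycoprotein that neutrophil granules also carry, had 186 and 214 FPKM in the MEP libraries and 4.06 and 0.770 FPKM in the CMP libraries. Olfm4, a neutrophil granule protein found in a subset of cells, had 105 and 128 FPKM in the MEP libraries and 3.87 and 0.318 FPKM in the CMP libraries, and Lrg1 had 254 and 293 FPKM in the MEP libraries and 15.2 and 2.43 FPKM in the CMP libraries. The integrin gene Itgb2l, the chitinase-like gene Chil1, Ifitm6, Mmp25 (a membrane metalloprotease of neutrophils), Olfml2b, Sept5, Inhba (a subunit of activin), St3gal5 and Mapk13 made up the rest of the 12 largest increases, with log2 differences between 4.48 and 5.88. On the other side, Lgals1, galectin 1, averaged 14.1 FPKM in MEP and 584 FPKM in CMP. Ass1, argininosuccinate synthase, had 2.39 and 1.18 FPKM in the MEP libraries and 82.2 and 96.3 FPKM in the CMP libraries. Srm, spermidine synthase, and Phgdh, the first enzyme of serine synthesis, averaged 5.94 and 5.67 FPKM in MEP, and 107 and 102 FPKM in CMP. Bex6, Txndc5, Tifab, Ly86, S100a10, Gria3, Serpinf1 and Slc25a4 were the other genes among the 12 largest decreases, with log2 differences between -5.28 and -3.95.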

How the data were processed

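The deposited table holds 1 FPKM value per gene and group, the authors' average over 2 samples. The build is mm10 per the submitters' processing notes. Names of aligner, counter and annotation were not given in the sources used here. Libraries were made with a TruSeq kit from total RNA, per the labels. Of 49588 lines 2 named no gene and 3 were repeats. Gene IDs were matched to GENCODE M21 (49324 of 49583).

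Fragment counts of the libraries were recovered by searching, for each mean, pairs of whole counts that give its digits at the depths found from low values, with the annotated exon length (11395 genes) or a searched one (2375); 279 of 14049 genes had no length. Recovered genes hold 45.8% and 46.6% of fragments in MEP and 61.2% and 59.4% in CMP. The method accepts only counts that fit, was checked on simulated data, and its error on real genes was not measured.

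Differences are log2(FPKM + 1). limma 3.58.1 in R 4.3.3 (lmFit, eBayes with trend; 2 residual and 3.24 prior degrees of freedom) tested genes with at least 1 FPKM in 2 libraries. A gene could pass this filter through a single group, and its direction was then set by the filter. The members and the 29 lists (406 genes, 2 not analysed here and some others not reported here by name) were chosen with earlier results of these data known. Genes named are list members, all 6 gate antigens, and the 12 largest differences in each direction with at least 10 FPKM in the higher column and, where recovered, libraries that do not overlap, leaving out unnamed models, receptor segments and list members. Alternatives changed the pseudocount, the filter, the scaling, the shared spread and the libraries.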

Additional observations from a re-analysis of the deposited data

How the results depend on the processing

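No paired analysis was possible because the table holds 1 mean per group and the recovered libraries carry no replicate numbers. On the means, 541 genes were at least 2-fold higher in MEP and 1379 lower with a pseudocount of 5, 1757 and 2018 after median-of-ratios scaling, and 1778 and 1883 after quantile normalization. Limma called 460 higher and 1288 lower with a pseudocount of 5, 1595 and 1878 after median-of-ratios scaling, and 1637 and 1696 after quantile normalization. Leaving out each library in turn gave 953 to 1056 higher and 3219 to 3347 lower; a lone library is then assumed to vary like the pair of the other group. Of 29 lists 16 had a median of at least 1 in either direction, 7 with a pseudocount of 5, 10 with no filter and 10 after quantile normalization; over recovered genes 18 did, and 15 to 18 with a library left out. The lineage antigen median reversed to -0.0199 with no filter and that of stem and multipotent genes to 1.15 with a filter of 5 FPKM, since these keep other members; no globin gene passes a filter of 5 FPKM in either mean, so that list has no value there. Of 303 named and tested genes 31 changed sign in some alternative, none of which was called with FPKM as deposited; over genes and alternatives, 187 calls were lost and 98 gained, and 3553 stayed on their side. The test has 2 libraries a group, the most abundant genes have no test, and depth limits values under 1 FPKM. The recovered libraries are inferred from the digits of the means.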

Other observations

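Gene families outside those described above set the columns apart further, and all are given as values. Cytosolic ribosomal protein genes were lower in MEP, with a median log2 difference of -1.92 against -0.52 over all genes. Limma called 50 of 50 tested members lower, against 29.5% of all genes. The family held 2.98% of FPKM in MEP and 16.7% in CMP. Rplp0, a stalk protein of the large subunit, averaged 353 FPKM in MEP and 1447 FPKM in CMP, and the median of the family stayed at -1.42 after median-of-ratios scaling. Genes of the mitochondrial genome had a median of -1.55, and mt-Nd2, a subunit of complex I, had 234 and 194 FPKM in the MEP libraries and 836 and 936 FPKM in the CMP libraries.

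Enzymes that feed growth went with them. All 12 purine synthesis enzymes were called lower in MEP (median -2.06), against 29.5% of all genes. Impdh2, which makes guanine nucleotides, had 17.49 and 15.5 FPKM in the MEP libraries and 105 and 109 FPKM in the CMP libraries. Of 8 tested serine and one-carbon enzymes 6 were called lower, against the same 29.5%. The exceptions were Tyms and Mthfd2, and Mthfd2 averaged 16.4 FPKM in MEP and 12.6 FPKM in CMP. Of 17 tested cytosolic aminoacyl-tRNA synthetases 12 were called lower, against 29.5% of all genes. Iars was among the 12, with 4.27 FPKM in MEP and 26.7 FPKM in CMP. In cholesterol synthesis calls were near the shares over all genes, with 4 of 16 called lower, near the 29.5% of all genes, and 1 higher, against 8.77%, which was Mvd at 24.9 FPKM in MEP and 7.32 FPKM in CMP, and its median of -0.40 turned to 0.03 after median-of-ratios scaling and 0.04 after quantile normalization.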
